A study of Mus musculus with 15 samples.

Results

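Peg10 and Mest are the lead genes of a pair of imprinted domains on mouse chromosome 6, and their allelic expression was measured here with 5 neighbours of the same domains. Peg10, Sgce, Ppp1r9a, Casd1 and Asb4 belong to the Peg10-Sgce domain, and Mest and Copg2 to the Mest-Copg2 domain. They were taken by name and are 7 of the 44260 genes in the table. The material was day 12 cortical organoids grown from SpretB6 epiblast stem cells, hybrid mouse cells with 1 genome copy from the laboratory strain C57Bl/6J (B6) and 1 from the wild-derived Spret background. There were 3 libraries of 1 group, with no treatment named in the labels, titled SpretB6_C1, SpretB6_C2 and SpretB6_C3 and called libraries 1, 2 and 3. For every gene a library had a value from its B6 reads and a value from its Spret reads. The question was whether the 2 alleles of a gene, which share 1 cell and 1 set of regulatory proteins, were read equally. A further 12 samples of the series, iPSC lines of 4 crosses, were not analysed here.

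Imprinted genes are read mainly from the copy inherited from 1 parent, because methylation laid down in the egg or sperm at a control region marks that copy in the offspring. In mouse, Peg10, Sgce and Mest are known as paternally expressed genes, and their control regions carry the methylation on the maternal copy. Neighbours such as Asb4, Ppp1r9a and Copg2 have been described as maternally expressed or maternally biased in some tissues and as read from both copies in others. In brain, Mest makes a longer transcript that runs into Copg2 on the opposite strand.

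The libraries fixed the direction of the cross. X-linked genes had a pooled Spret share, the Spret value as a percentage of the B6 plus Spret value, of 0.0941% ± 0.00595 (SD, n = 3), and Y-linked genes one of 99.5% ± 0.280 (SD, n = 3). The X chromosome was therefore of B6 origin and the Y of Spret origin, which makes B6 the maternal copy and Spret the paternal copy. Only this direction of the cross was measured, so parental origin and strain cannot be told apart at any single gene. The median autosomal ratio also leaned to B6, with a log2 Spret/B6 of -0.13 over 15456 tested autosomal genes, and on chromosome 6 it was -0.15 over 814 genes. Column sums per library, both alleles together, were 5039845, 4502664 and 5666990, which stand for about 4.36M, 3.53M and 8.44M allele-assigned reads. Cortical neuron markers summed to 19776, 19624 and 19526 in libraries 1, 2 and 3 and pluripotency markers to 71, 79 and 22, so the libraries held neural RNA although their tissue label names epiblast stem cells. The labels do not say that the libraries came from separate cultures, and the spread on which the p-values rest may thus be technical.

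Library 3 stood apart from libraries 1 and 2 at an imprinted cluster outside chromosome 6. Meg3, a long noncoding RNA of the Dlk1-Dio3 cluster known as maternally expressed, had a Spret share of 11.7%, 14.5% and 86.1% in libraries 1, 2 and 3, and Rian, Mirg and Rtl1 of the same cluster changed side with it. These 4 genes were named after their values were seen. Library 3 also had, by estimate, the most reads. Of the 4 allelic calls described here, those of Peg10 (-0.53, adjusted p = 0.00603) and Mest (0.49, adjusted p = 0.00939) were kept without library 3, and those of Ppp1r9a and Copg2 were not.

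The domains differ in layout, by GENCODE M21 positions on GRCm38, the assembly that mm10 names. Sgce (chromosome 6, 4674350 to 4747207, minus strand) and Peg10 (4747306 to 4760517, plus strand) start back to back with 98 bases between their ends. Casd1 (4600839 to 4643355, plus strand) ends 31.0 kb before Sgce, Ppp1r9a (4902917 to 5165661, plus strand) begins 142.4 kb after Peg10, and Asb4 (5383386 to 5433022, plus strand) begins 636 kb from the Peg10 start. Mest (30723547 to 30748465, plus strand) lies 26.0 Mb further along, and its annotated 3' end overlaps the 3' end of Copg2 (30747554 to 30896794, minus strand) by 912 bases. No source used here says whether the counting used strand, so reads from that overlap cannot be assigned to Mest or Copg2.

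Promoter sequence is shown for 1 called gene of each domain, Mest and Ppp1r9a, because methylation at CG dinucleotides is the mark by which imprinted copies are told apart. The RefSeq table for GRCm38.p6 held promoters for 5 of the 7 genes. It had no entry for Peg10 or Sgce. Of the windows listed for these genes, those free of annotated exons are shown. Each line gives the 250 bases before an annotated start, with every CG (the same on both strands) in capitals.
Mest, chr6:30737800-30738049, plus strand: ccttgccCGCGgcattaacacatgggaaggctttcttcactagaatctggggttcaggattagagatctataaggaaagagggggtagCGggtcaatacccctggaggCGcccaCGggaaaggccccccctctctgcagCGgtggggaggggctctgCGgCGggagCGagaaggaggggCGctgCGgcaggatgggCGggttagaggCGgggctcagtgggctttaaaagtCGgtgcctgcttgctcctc
Ppp1r9a, chr6:4903061-4903310, plus strand: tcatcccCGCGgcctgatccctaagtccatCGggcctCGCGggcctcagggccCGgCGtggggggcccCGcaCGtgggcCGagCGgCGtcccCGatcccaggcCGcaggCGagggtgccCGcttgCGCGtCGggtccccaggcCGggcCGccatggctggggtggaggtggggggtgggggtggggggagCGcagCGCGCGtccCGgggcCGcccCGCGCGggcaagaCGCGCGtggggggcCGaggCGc
The Mest window held 14 CG, a number reached by 29.6% of the 32536 promoter windows of this length in the table, and the Ppp1r9a window held 35, reached by 3.00%. The median window held 6. Windows of other annotated starts of the same genes overlapped exons and held 7 and 14 CG at Mest and 8 at Ppp1r9a, so the number depends on the start chosen. Further, the deposited value of a gene does not separate its starts. No methylation was measured, and nothing used here shows whether either window lies in an imprinting control region.

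The 6 genes with enough reads to test had reads from both alleles in every library, and none of them was close to being read from 1 allele only. Over these genes the Spret share of a library ran from 39.9% to 59.1%. Among 8952 autosomal genes with a mean summed value, B6 plus Spret, of at least 100, the median share was 48.2% and the 5th and 95th percentiles were 36.2% and 58.7%. In that set 7 genes had a Spret share of at least 90% in every library and 13 had at most 10%, and none of the 6 tested domain genes was among them. The genes of the Peg10-Sgce domain had shares under those of the Mest-Copg2 domain: the highest share in the first, leaving out Asb4, was 47.3% (Sgce, library 3), and the lowest in the second was 52.5% (Copg2, library 3).

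**Figure D1:**
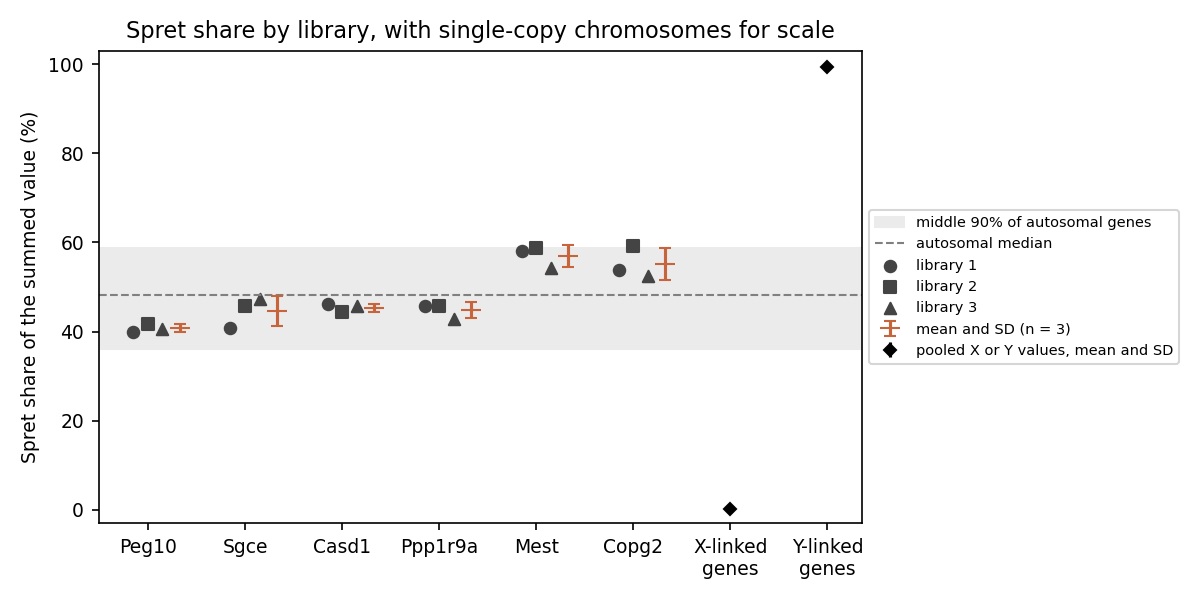
Spret share of 6 domain genes in percent of the B6 plus Spret value, 1 black symbol per library, with the mean and SD over 3 libraries in orange; the band marks the 5th to 95th percentile and the dashed line the median of autosomal genes, and diamonds show pooled X-linked and Y-linked genes. Peg10, Sgce, Ppp1r9a and Casd1 lie between 39.9% and 47.3% and Mest and Copg2 between 52.5% and 59.1%.

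Of the 6 tested genes, 4 passed the test of allelic difference at an adjusted p of 0.05. Peg10 and Ppp1r9a were higher from B6, and Mest and Copg2 were higher from Spret. Across all tested autosomal genes 28.4% passed, 20.7% higher from B6 and 7.78% higher from Spret. Spret made up 27.3% of the autosomal calls, or 49.5% when each library's ratios were first centred on their median. Centring shifts every ratio toward Spret by between 0.12 and 0.13 on the log2 scale. A fit with no library term, which leaves the level differences between libraries in the error, called none of the 6 genes (adjusted p of 0.287 to 0.702 for the 4 called here).

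Peg10 (ENSMUSG00000092035.8) encodes a protein derived from the gag and pol genes of a retrotransposon and is needed for formation of the placenta. Its B6 values were 310, 221 and 491 in libraries 1, 2 and 3, and its Spret values were 206, 158 and 335. B6, the maternal copy, was the higher allele in each library, although the alleles' ranges overlapped between libraries because library 3 was high for both. The Spret share was 39.9%, 41.7% and 40.6%, a mean of 40.7% ± 0.895 (SD, n = 3). The log2 Spret/B6 ratio on the log2(value + 1) scale was -0.54 ± 0.08 (SE), which is 1.45-fold higher from B6, with a limma adjusted p of 0.000194. This share lay at the 12.4th percentile of the 8952 autosomal genes. The adjusted p was 0.0120 or less with any 1 library left out.

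Sgce encodes epsilon-sarcoglycan, a membrane protein of the dystrophin-associated complex, and loss of the human gene's paternal copy causes myoclonus-dystonia. It shares its start region with Peg10. The B6 values were 144, 116 and 164 and the Spret values were 99, 98 and 147 in libraries 1, 2 and 3. B6 was higher in each library. The share was 40.7%, 45.8% and 47.3% (44.6% ± 3.42, SD, n = 3), and the ratio of -0.31 ± 0.13 (SE) did not pass the test, with an adjusted p of 0.0759 in limma. The Sgce share was above that of Peg10 in 3 of 3 libraries, although the ranges over libraries overlapped, and the difference between these genes was not tested.

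Ppp1r9a encodes neurabin, an actin-binding protein of neurons that holds protein phosphatase 1 at synapses. Its values were 454, 415 and 503 from B6 and 384, 351 and 377 from Spret in libraries 1, 2 and 3. Every B6 value was above every Spret value. The share of 45.8%, 45.8% and 42.8% averaged 44.8% ± 1.72 (SD, n = 3), and the ratio was -0.30 ± 0.07 (SE) with a limma adjusted p of 0.00639. The call was lost when ratios were centred (-0.18, adjusted p = 0.0892), without library 3 (-0.24, adjusted p = 0.0798), without the low-value filter and without the trend.

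Casd1 encodes the Golgi enzyme that adds O-acetyl groups to sialic acids. Its values were low, 90, 64 and 87 from B6 and 77, 51 and 73 from Spret. B6 was again the higher allele in each library, with the alleles' ranges overlapping. The share was 46.1%, 44.3% and 45.6% (45.4% ± 0.909, SD, n = 3), and the ratio of -0.26 ± 0.16 (SE) did not pass, with an adjusted p of 0.225 in limma.

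Asb4 encodes a SOCS-box protein that brings substrates to a cullin ubiquitin ligase and is known from the placenta and the hypothalamus. It was nearly silent. The B6 values were 15, 3 and 2 and the Spret values 0, 5 and 3 in libraries 1, 2 and 3, which stand for about 13, 2 and 3 B6 reads and about 0, 4 and 4 Spret reads. Its mean of 4.67 over the 6 allele columns was under the minimum of 10, so it was not tested, and library 1 leaned to B6 while libraries 2 and 3 leaned to Spret.

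**Figure D2:**
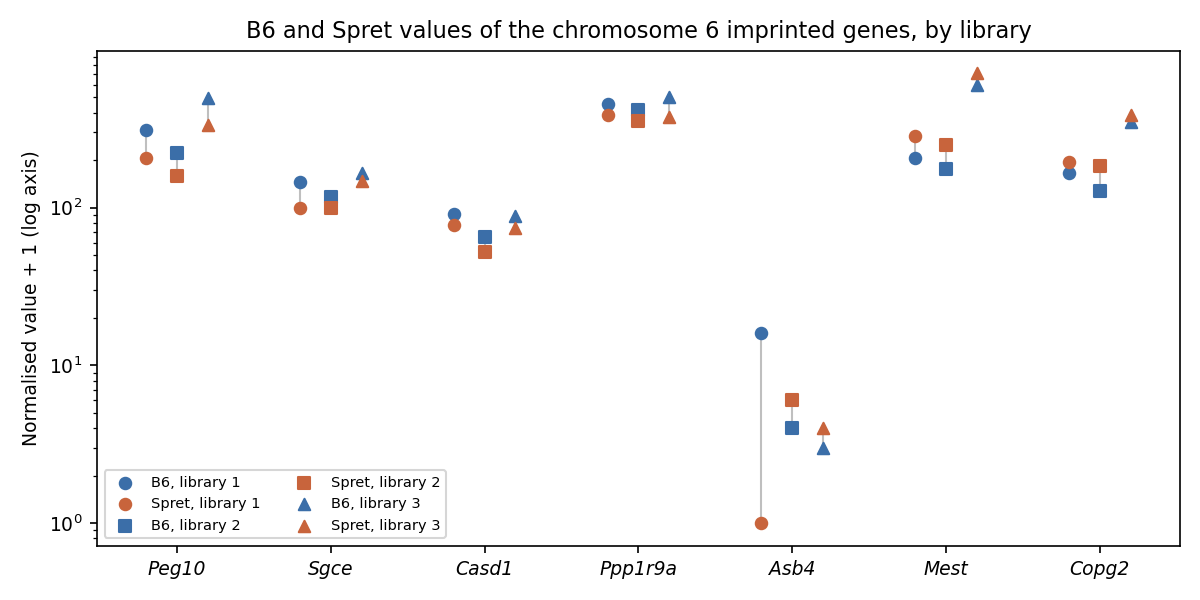
Normalised allele-specific values plus 1 of the 7 genes on a log axis, with the B6 (blue) and Spret (orange) symbols of a library joined by a line. B6 lies above Spret for Peg10 (310 and 206 in library 1) and below it for Mest (206 and 285 in library 1), in each library.

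Mest encodes a hydrolase-fold protein of the endoplasmic reticulum that is abundant in embryonic mesoderm and in developing brain. Its B6 values were 206, 174 and 601 in libraries 1, 2 and 3 and its Spret values were 285, 248 and 710. Spret, the paternal copy, was higher in each library, and library 3 was high for both alleles. The share was 58.0%, 58.8% and 54.2%, a mean of 57.0% ± 2.48 (SD, n = 3) at the 92.3rd percentile of autosomal genes. The ratio was 0.41 ± 0.08 (SE), or 1.32-fold higher from Spret, with a limma adjusted p of 0.00191. Leaving out any 1 library gave adjusted p-values from 0.00939 to 0.0416, and the call was lost without the low-value filter (adjusted p = 0.109) and without the trend (adjusted p = 0.0991).

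Copg2 encodes a gamma subunit of the COPI coat, which returns vesicles from the Golgi to the endoplasmic reticulum. Its B6 values were 165, 126 and 348 and its Spret values 193, 182 and 384 in libraries 1, 2 and 3. It leaned to Spret in each library, on the same side as Mest. The share was 53.9%, 59.1% and 52.5% (55.2% ± 3.49, SD, n = 3), and the ratio was 0.30 ± 0.10 (SE), a 1.23-fold difference with a limma adjusted p of 0.0390. That call was lost when any 1 library was left out, with ratios from 0.18 (without library 2, adjusted p = 0.224) to 0.38 (without library 3, adjusted p = 0.0813; without library 1, adjusted p = 0.120).

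Ordered by mean Spret share, the genes ran Peg10, Sgce, Ppp1r9a, Casd1, Copg2 and Mest. Peg10 and Sgce overlapped in their library ranges, as did Sgce, Ppp1r9a and Casd1, and as did Copg2 and Mest. Casd1 and Copg2, the neighbours in this order from different domains, did not overlap.

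The summed level, both alleles together, differed more between libraries for some of these genes than for others. Mest summed to 491, 422 and 1311 in libraries 1, 2 and 3, so that library 3 was 2.87 times the mean of the other two. Copg2 summed to 358, 308 and 732, a ratio of 2.20, and Peg10 to 516, 379 and 826, a ratio of 1.85. Across tested autosomal genes the median of this ratio was 1.16 and the 95th percentile 1.73, which places Mest at the 99.7th, Copg2 at the 98.8th and Peg10 at the 96.7th percentile. The high level of library 3 was present on both alleles: its ratio was 3.16 for B6 and 2.66 for Spret at Mest, 2.39 and 2.05 at Copg2, and 1.85 and 1.84 at Peg10. Sgce (243, 214 and 311, a ratio of 1.36), Casd1 (167, 115 and 160, 1.13) and Ppp1r9a (838, 766 and 880, 1.10) were within the range of most genes. Sgce thus differed in this ratio from Peg10, its partner at the shared start region, in a single library and with no test.

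The cell makeup of library 3 was read from marker lists. Of 8 mesenchyme markers, 1 had a mean summed value of at least 100 and none was at 0 in all libraries, and the list summed to 450, 467 and 431 in libraries 1, 2 and 3. Choroid plexus markers summed to 2857, 684 and 369, dorsal forebrain progenitor markers to 5010, 4417 and 4495, and hypothalamic markers to 90, 118 and 82. Endoderm markers summed to 51, 108 and 32. Library 3 was the lowest for mesenchyme, choroid plexus, hypothalamus, endoderm, pluripotency and, by little, cortical neurons, but not for dorsal forebrain progenitors. Single markers could differ: Dcn of the mesenchyme list was at 180, 150 and 194, and Sim1 of the hypothalamus list at 15, 29 and 43. The near-equal cortical neuron sums hid opposite shifts. Tbr1 (245, 234 and 508), Map2 (8725, 8041 and 9889) and Bcl11b (805, 741 and 831) were highest in library 3. Neurod6 (4730, 4871 and 3177), Neurod2 (2092, 2454 and 2015) and Tubb3 (3179, 3283 and 3106) were lowest there. Library 3 was also, by estimate, the library with the most reads. The part of depth or of cell makeup in the high Mest, Copg2 and Peg10 levels was not tested. In bulk RNA, more cells that express a gene and more RNA per cell cannot be told apart.

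**Figure D3:**
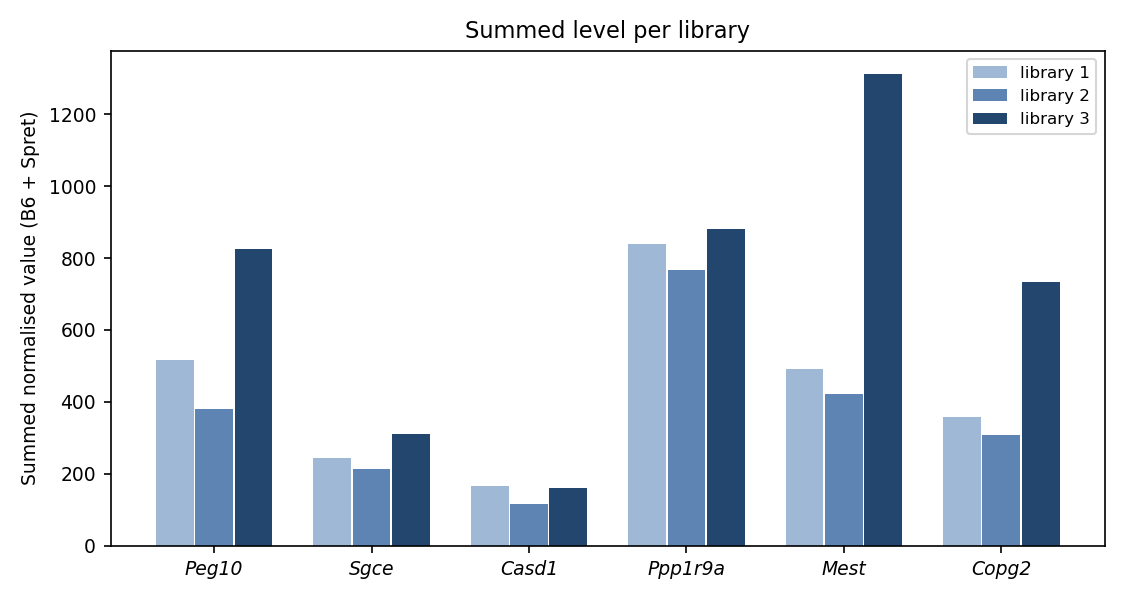
Summed normalised value (B6 plus Spret) of 6 genes, 1 bar per library from 0. Library 3 has the highest bar for Mest (1311 against 491 and 422) and Copg2 (732 against 358 and 308), while the Ppp1r9a bars lie between 766 and 880.

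Per kilobase of annotated exon, Mest had the highest mean summed value, 188 ± 125 (SD, n = 3), followed by Copg2 with 91.0 ± 45.2 and Peg10 with 86.0 ± 34.4. Ppp1r9a had 57.0 ± 3.97, Casd1 36.5 ± 6.99, Sgce 24.1 ± 4.69 and Asb4 2.37 ± 1.31 per kilobase. Mest, Copg2, Peg10 and Ppp1r9a each overlapped the next in this order within 1 SD, while Ppp1r9a, Casd1, Sgce and Asb4 were separated by more than that. Within each library, however, Mest was the highest and Ppp1r9a was below both Copg2 and Peg10, which changed order between libraries. Only reads that cover a base at which the strains differ can enter the table, and the number of such bases per gene is not known here, so this order holds for allele-assigned reads only.

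Other genes within 1 Mb were read from the same fit. Around Peg10, 9 of 35 genes were tested. Of the 5 that are not among the 7 genes 1 passed, Dync1i1, a dynein intermediate chain of neurons, which was higher from Spret with a ratio of 0.76 ± 0.14 (SE) and a limma adjusted p of 0.000715. Sem1, a proteasome subunit gene further from Peg10 on the same side, was also higher from Spret (0.52 ± 0.05, SE, adjusted p = 3.68e-06). Around Mest, 15 of 58 genes were tested, and of the 13 others 3 passed, all higher from B6: Mkln1 with -0.57 ± 0.08 (SE), Ube2h with -0.51 ± 0.12 and Podxl with -0.50 ± 0.09. With so few genes tested, these counts were not read against the autosomal 28.4%. The listed neighbours Klhdc10 (-0.02), Tmem209 (-0.0012) and Zc3hc1 (-0.23) did not pass. Cep41, whose start is next to that of Mest and which was named after its value was seen, had 0.42 ± 0.22 (SE) and did not pass (adjusted p = 0.167).

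**Figure D4:**
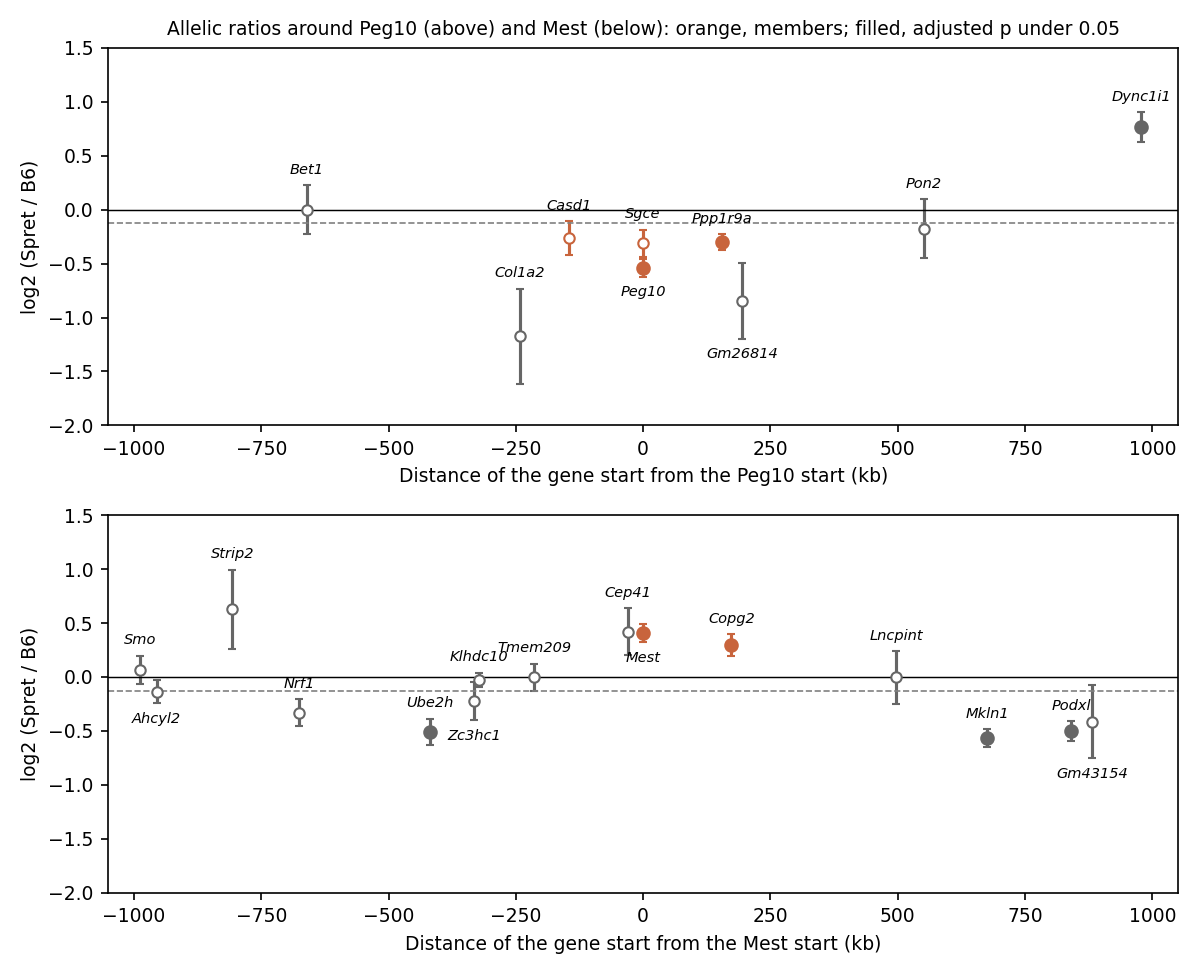
Log2 Spret/B6 ratio with its SE for tested genes within 1 Mb of the Peg10 start (above) and of the Mest start (below), against distance in kb; the 6 tested domain genes are orange, filled points passed the test, and the dashed line is the autosomal median of -0.13. Peg10 lies at -0.54 and Mest at 0.41.

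Imprinted genes elsewhere in the genome leaned to either side. Of 17 other tested genes known as paternally expressed, 3 were higher from Spret, 4 were higher from B6 and 10 did not pass, with a median ratio of 0.09 against -0.13 for all autosomal genes. Kcnq1ot1, the antisense RNA of the Kcnq1 domain, had 1.05 ± 0.21 (SE), Peg13 0.88 ± 0.25 and Snurf 0.46 ± 0.12, whereas Zrsr1 had -0.68 ± 0.11, Impact -0.61 ± 0.09 and Plagl1 -0.50 ± 0.07. Mean shares ran from 35.0% to 66.4%, with Mest and Peg10 inside this range. Kcnq1ot1 was itself uneven between libraries, with a share of 59.7%, 58.5% and 81.1%. Snrpn, whose annotated span holds that of Snurf on the same strand, was named after its values were seen. Its ratio of 0.18 ± 0.09 (SE) did not pass (limma adjusted p = 0.152). The Snrpn share was 54.5%, 57.6% and 47.2% in libraries 1, 2 and 3. Of 9 tested genes known as maternally expressed, 2 were higher from B6, a share near the 20.7% of all autosomal genes, and 7 did not pass. The median was -0.40. The called genes were Ube3a, a ubiquitin ligase gene (-0.35 ± 0.06, SE), and Igf2r, a receptor that clears growth factor (-0.32 ± 0.09). Means and counts hide the Dlk1-Dio3 genes, which did not pass and whose side changed between libraries: Mirg had a share of 14.7%, 12.2% and 86.9% in libraries 1, 2 and 3, Rtl1, known as paternally expressed, 12.9%, 9.28% and 82.7%, and Rian 11.3% in library 2 and 85.8% in library 3. Rtl1 is annotated on the minus strand between Meg3 and Rian, which are on the plus strand. Whether counting used strand is not known here, so its values may include reads from the opposite strand. The 6 tested chromosome 6 genes each kept 1 side in all 3 libraries, as did 14 of these 26 imprinted genes.

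**Figure D5:**
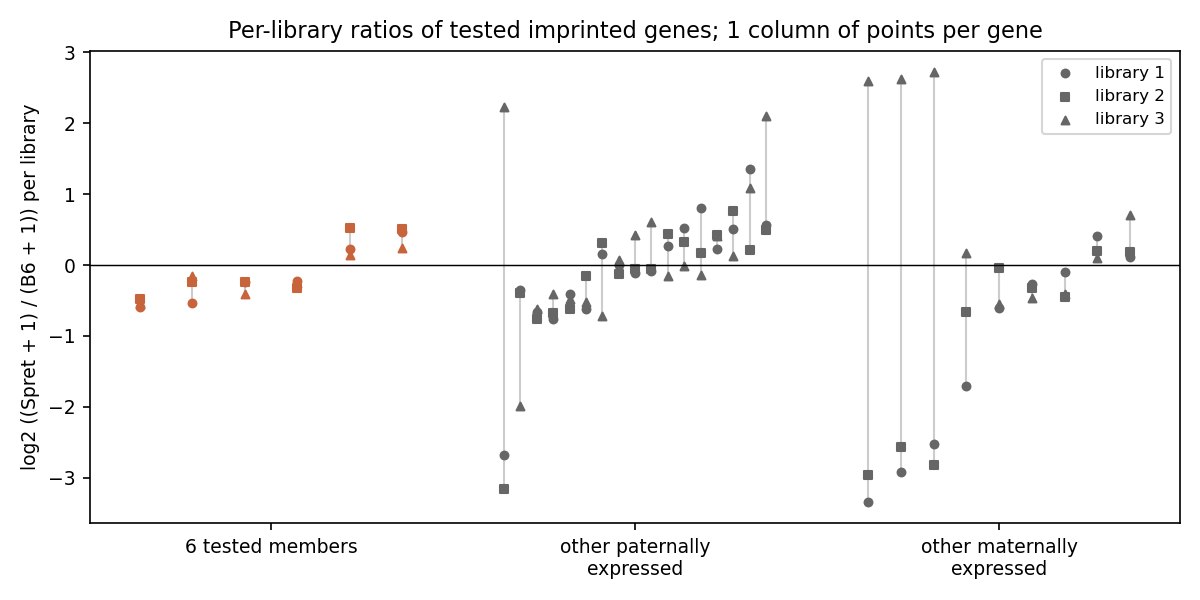
Log2 Spret/B6 ratio in each library for the 6 tested chromosome 6 genes (orange) and for 17 paternally and 9 maternally expressed imprinted genes elsewhere (grey), 1 column per gene with its libraries joined by a line. The orange columns and 14 of the 26 grey columns keep 1 side of 0, while 4 grey columns (Rtl1, Meg3, Rian and Mirg) run from far below 0 in libraries 1 and 2 to far above it in library 3.

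The genes that work with the members in other pathways were described the same way, over tested autosomal genes, of which 7.78% were higher from Spret and 20.7% from B6 in all. The lists are short, and nothing particular to them is read from these counts. Among 6 genes that, like Peg10, descend from retrotransposon gag sequences, 2 were higher from Spret (Ccdc8 with a mean share of 75.3% and Moap1 with a ratio of 0.89 ± 0.27, SE) and 1 from B6 (Pnmal1 with -0.88 ± 0.14). A further 4 were X-linked and thus read from the B6 copy. Among 11 genes of the dystrophin complex, in which Sgce works, 1 was higher from Spret (Sntg1, 0.81 ± 0.17) and 1 from B6 (Dtna, -0.27 ± 0.07). Among 14 genes of protein phosphatase 1 and the neurabin partners, 1 was higher from Spret (Ppp1cc, a catalytic subunit, 0.45 ± 0.07) and 5 from B6, led in level by Rgs4 (-1.40 ± 0.09) and Ppp1r10 (-0.24 ± 0.08). The catalytic subunits Ppp1ca (-0.33 ± 0.08) and Ppp1cb (-0.36 ± 0.08), named after their values were seen, were among those 5.

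Of 13 genes of sialic acid metabolism, in which Casd1 works, 2 were higher from Spret, including St3gal5 (0.59 ± 0.10, SE), and 4 from B6, among them St8sia4 (-1.43 ± 0.08) and Siae, the esterase that removes the O-acetyl group (-0.44 ± 0.13). Of 12 tested genes of the cullin ligase in which Asb4 works, 6 were higher from B6, against 20.7% of autosomal genes, and 6 did not pass. The first group included Cul5 (-0.31 ± 0.08), Eloc (-0.44 ± 0.13) and Asb7 (-0.72 ± 0.14). Of 12 COPI genes, the partners of Copg2, 1 was higher from Spret (Cope, 0.44 ± 0.11) and 3 from B6, including Copa (-0.29 ± 0.06), Copb1 (-0.31 ± 0.09) and the GTPase gene Arf1 (-0.91 ± 0.15). Copg2, at 0.30, thus leaned the way Cope did and Copa and Copb1 did not. Of the tested coat genes that did not pass, Copz1 (0.23), Copb2 (0.16) and Copg1 (0.14) leaned to Spret and Arcn1 (-0.19) to B6.

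Genes with a pattern nearest to Peg10 were sought among 8951 autosomal genes by the sum over the 3 libraries of the absolute difference in Spret share. They were Amn1 (0.452 percentage points), Paqr3 (0.569), Entpd7 (0.898), Frg1 (0.954) and Scarna10 (1.15). Those nearest to Mest were Mpdu1 (0.811), Sorl1 (1.07), Ntrk3 (1.46), Galnt7 (1.46) and Smpd3 (1.51). None of the 10 is on the lists of imprinted genes used here, so the shares of Peg10 and Mest were also found at genes outside those lists.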

How the data were processed

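Allele-specific RNA reads were measured in day 12 organoids. The authors' deposited values are a score, whole numbers that the table's name gives as normalised allele-specific counts per gene. The submitters' processing notes name mm10 as the build. How reads were aligned, assigned to alleles, counted, normalised and used by strand is not stated in the sources used here. The libraries were depleted of ribosomal RNA with 80M reads planned, per the labels' protocols. Exact read numbers could not be recovered in library 3, so no count test was run. The approximate read numbers come from scale factors of 1.16, 1.28 and 0.672 for libraries 1, 2 and 3, estimated from the spacing of the values. The order of the libraries by depth is thus an estimate too.

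A gene was tested if its 6 allele columns averaged at least 10, which 15985 did. The test was limma 3.58.1 (R 4.3.3) on log2(value + 1), modelling the library and the allele, with a mean-variance trend, two-sided, with Benjamini-Hochberg adjustment over all tested genes and a threshold of 0.05. The library term is the pairing, given by the material: the alleles of a library come from 1 RNA sample. The fit has 2 residual and 12.3 prior degrees of freedom. The script was tested on simulated data. A fold on this scale understates the change of low genes.

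Members and lists were chosen with earlier results of these data known. Named were the 7 members, listed neighbours that passed or had a mean summed value of at least 100, the 5 genes nearest in Spret share to Peg10 and to Mest, and up to 3 called genes of highest value per list and direction. Alternatives were the pseudocount, the filter, centring, the trend, the prior, the genes fitted, the library term and each library left out. The 12 stem cell samples were not used here.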

Additional observations from a re-analysis of the deposited data

How the results depend on the processing

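Over 12 alternatives, 57 of 72 allelic ratios of the tested domain genes kept their direction and their side of the threshold, 15 lost the call and none reversed. The 57 include every ratio of Sgce and Casd1, which did not pass in the main fit and had no call to lose. All 15 losses thus fell on the called genes Peg10, Ppp1r9a, Mest and Copg2, and the 72 overstate how stable their calls were. Asb4 was under the filter and has no ratio among the 72. Without the filter its adjusted p was 0.633. The number of called genes was 4852, and 1537 in a fit with no replicate block (no library term), 1236 with no filter, 2229 with no trend, and 2667 to 4001 with 1 library left out; these sets were not compared gene by gene. With no replicate block no domain gene passed: the adjusted p was 0.348 for Peg10 (-0.54), 0.287 for Ppp1r9a (-0.30), 0.672 for Mest (0.41) and 0.702 for Copg2 (0.30). With no filter it was 0.116 for Ppp1r9a, 0.109 for Mest and 0.248 for Copg2, and with no trend 0.150, 0.0991 and 0.200. Centring ended the call of Ppp1r9a (-0.18). With 1 library left out, Ppp1r9a ran from -0.33 to -0.24 and Copg2 from 0.18 to 0.38. The cause was not tested. Of the other named ratios 488 values kept their direction and their side of the threshold, 130 lost the call, 3 gained one and 7 reversed. The 488 include values of genes that did not pass in the main fit and had no call to lose. The 7 reversals were all at uncalled genes: Klhdc10 (0.10 centred, -0.069 to 0.013 with 1 library left out), Tmem209 (0.12 centred, -0.13 to 0.089), Smo (-0.028 to 0.21) and Zc3hc1 (-0.43 to 0.037).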

Other observations

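The high level of library 3 was also seen at imprinted genes outside chromosome 6. Of 17 tested genes known as paternally expressed, 9 (52.9%) had a summed value in library 3 over the mean of libraries 1 and 2 above the autosomal 95th percentile of 1.73, with a median of 1.79, and of 9 known as maternally expressed 3 (33.3%) did, with a median of 1.51. Of the 6 tested genes of the Peg10-Sgce and Mest-Copg2 domains 3 did. The median over all tested autosomal genes was 1.16. The genes above the 95th percentile were not all separate loci. Snrpn (1.91), Snurf (2.10), Ndn (1.85) and Magel2 (3.83) lie close together on chromosome 7, with the Snurf span inside that of Snrpn. Meg3 (1.98) and Mirg (2.05) belong to the same Dlk1-Dio3 cluster. The percentages of imprinted genes thus count linked genes as separate ones. On the lists of COPI, dystrophin complex, protein phosphatase 1, cullin ligase, sialic acid and gag-derived genes, and of the listed neighbours of both domains, 0 tested autosomal genes were above that percentile. Among X-linked gag-derived genes, Rtl9 (2.95) and Zcchc12 (3.15) were above it, and Rtl5 (1.29) and Zcchc18 (1.41) were not. Lncpint, a gene within 1 Mb of Mest that is not on the neighbour list, had a ratio of 1.93. These are values of a single library, with no test.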
